A study of Mus musculus with 24 samples.

Results

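Lrrn4, Chrdl1, Hmcn1 and Tmem178 were chosen because their levels leaned higher in C1qtnf6-KO than in wild-type (WT) tissue at gd19.5 (gd, gestation day), and Upk3b, Upk1b, Msln and Wt1 were added as markers of mesothelium for comparison. The 8 genes are 8 of the 55401 in the deposited table of read counts. The knockout-to-WT difference at gd19.5 was therefore known when the first 4 were chosen, so it is described for all 8 genes without a test, and tests are given only for other stages and for change between stages. The step up to gd19.5 includes the libraries of that choice. The members did not share 1 pattern in these libraries, and the name of a mesothelial group did not describe how they varied. Upk3b was higher in the libraries rich in transcripts of yolk sac endoderm than in the others. Wt1 was highest at the earliest stage, Msln was at a similar level throughout, and of the 4 chosen genes Chrdl1 was highest at gd14.5 and the other 3 in KO tissue of gd19.5.

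The maternal-fetal interface (MFI), which holds maternal decidua and fetal placenta, was sampled at 4 stages, from gd10.5 through gd14.5 and gd16.5 up to gd19.5. Each genotype has 3 libraries of polyA RNA at every stage, 24 in all. WT mice were C57BL/6. The C1qtnf6-KO mice (strain C57BL/6JCya) were homozygous for a CRISPR-Cas9 deletion of exons of C1qtnf6, which encodes the secreted protein CTRP6, and came from 1 supplier line. The labels name no treatment, the age of the dams of these libraries is not given in the sources used here, and the labels name no litter, dam or animal, so p-values measure only the spread between libraries. In such bulk tissue, fewer cells of a type and less RNA per cell cannot be told apart.

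Mesothelium is the flat epithelium that lines the body cavities and covers the organs in them, the uterus included, and during development it can give rise to stromal and smooth muscle cells. Lrrn4, a leucine-rich repeat membrane protein, and Upk3b, a uroplakin, are used as markers of it, as are the membrane protein Upk1b, the surface glycoprotein Msln and the transcription factor Wt1. Chrdl1 is a secreted antagonist of bone morphogenetic proteins (BMPs), Hmcn1 is a very large extracellular matrix protein of the fibulin family, and Tmem178 is a membrane protein of the endoplasmic reticulum. Wt1 is also a gene of uterine stroma and decidua.

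On GRCm38, the genome of the deposited table, Lrrn4 lies on chromosome 2 from 132868305 to 132880891 on the minus strand and Chrdl1 on chromosome X from 143285674 to 143394262 on the minus strand. Hmcn1 is on chromosome 1 from 150562524 to 150993435 on the minus strand, and its exons sum to 21191 bases in 108 blocks. Tmem178 is on chromosome 17 from 80944632 to 81001816 on the plus strand with 1696 exon bases. Upk3b is on chromosome 5 (136038496 to 136046487, plus strand), Upk1b on chromosome 16 (38773184 to 38800328, minus strand), Msln on chromosome 17 (25748613 to 25754378, minus strand) and Wt1 on chromosome 2 (105126529 to 105173616, plus strand). All 8 are protein-coding genes with the same span in GENCODE M21. Reads were counted over all exons of a gene, untranslated ones included. Of the members, Hmcn1 alone overlaps another annotated gene, the antisense Gm20631, over 399 exon bases, and Gm20631 had 0 counts in all 24 libraries.

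Start regions of Lrrn4, Hmcn1, Tmem178 and Upk3b, and of no other member, were found among RefSeq promoters of GRCm38.p6. Lrrn4, Hmcn1 and Tmem178 are among the genes chosen at gd19.5. Upk3b is a marker for comparison, whose KO libraries also lay above WT at gd19.5, at a very low level. The 150 bases before the RefSeq start are chr2:132880863-132881012 (minus strand) for Lrrn4, chr1:150993436-150993585 (minus strand) for Hmcn1, chr17:80944482-80944631 (plus strand) for Tmem178 and chr5:136038346-136038495 (plus strand) for Upk3b. Capitals mark a CCAAT or a GGGCGG.
Lrrn4: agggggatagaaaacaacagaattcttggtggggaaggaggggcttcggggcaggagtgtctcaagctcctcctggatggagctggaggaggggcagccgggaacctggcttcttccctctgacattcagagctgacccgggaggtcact
Hmcn1: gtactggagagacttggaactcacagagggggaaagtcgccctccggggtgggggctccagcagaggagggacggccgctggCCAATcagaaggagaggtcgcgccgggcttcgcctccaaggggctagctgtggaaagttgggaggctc
Tmem178: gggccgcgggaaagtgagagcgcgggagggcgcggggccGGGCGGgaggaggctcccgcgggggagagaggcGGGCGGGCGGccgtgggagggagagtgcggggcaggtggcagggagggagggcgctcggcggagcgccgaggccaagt
Upk3b: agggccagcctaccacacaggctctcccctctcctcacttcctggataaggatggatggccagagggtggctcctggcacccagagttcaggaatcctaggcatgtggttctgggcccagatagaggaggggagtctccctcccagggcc
Over a window of 300 bases that runs 250 before to 50 after the start, the GC content was 58% in Lrrn4, 63.3% in Hmcn1, 77.7% in Tmem178 and 58.7% in Upk3b. The number of CpG dinucleotides was 7, 19, 37 and 2 in the same order. Tmem178 thus had the most CpG-rich start of the 4 and Upk3b the poorest. Hmcn1 held CCAAT 68 bases before the start on its own strand and 204 bases before it on the other strand, and 37.4% of all 32841 promoters hold it on either strand. Tmem178 held GGGCGG 111, 78 and 74 bases before the start, the last 2 overlapping, and 35.7% of promoters hold it. TATAAA (13.6% of promoters), GCGTGGG, a core that Wt1 binds (5.04%), and GGCGCC, a core that SMAD proteins bind (11.9%), had no match on either strand of the 4 windows. None of these 5 motifs was held by more than 1 of the 4 windows.

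Total counts lay between 20975717 and 37383108 per library. C1qtnf6, the deleted gene, was at 64.7 to 168 CPM (counts scaled to the TMM-normalised library size) in the WT libraries and at 0.0341 to 2.05 CPM in the KO libraries. Y-linked transcripts were present in 9 of the 24 libraries. Transcripts of yolk sac endoderm (Afp, Ttr, Apoa4, Amn, Cubn, Apob and Rbp4) summed to 1244 to 20217 CPM in 7 libraries and to 37.7 to 455 CPM in the other 17. The 7 were WT gd10.5 replicate 1, all 3 KO gd10.5 libraries, WT gd16.5 replicate 1 and KO gd16.5 replicates 1 and 2, and results that rest on them are given with and without them where libraries of both groups remained. At gd10.5 no KO library remained without them, so the genotypes could not be compared there. The limit of 1000 CPM between these libraries was set after the values had been seen.

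Of the 11 other mesothelial markers, some were scarce and others abundant. Calb2 had 0 or 1 count in every library and Rspo1 at most 10. Muc16 had at most 5 counts in 22 libraries, but 299 in WT gd16.5 replicate 1 and 48 in KO gd16.5 replicate 2, both among the libraries rich in yolk sac transcripts. Gpm6a, Bnc1 and Nkain4 had group means of 1.57 to 3.73, 0.509 to 1.02 and 0.204 to 1.29 CPM. Pdpn, a membrane glycoprotein, was at group means of 40.1 to 83.1 CPM. The 11 markers summed to 651 to 939 CPM per library, most of it from Krt7 and Krt19, keratins that trophoblast and uterine epithelium also make. Per length of the gene, Msln had group means of 15.0 to 22.5 RPKM (CPM per kilobase of exon), Wt1 3.86 to 19.4, Lrrn4 2.80 to 15.1 and Chrdl1 1.02 to 5.79. Tmem178 ranged from 0.115 to 5.15 RPKM, Upk1b from 0.234 to 1.40, Upk3b from 0.0484 to 1.14 and Hmcn1 from 0.0993 to 0.438. Msln and Upk3b, both called mesothelial, thus differed widely in level.

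At gd19.5, Lrrn4 was at 32.7, 30.2 and 27.6 CPM in WT replicates 1, 2 and 3 and at 61.4, 57.1 and 50.2 CPM in KO replicates 1, 2 and 3. Every KO library lay above every WT library. The means were 30.2 ± 2.59 CPM (SD, n = 3) and 56.2 ± 5.64 CPM (SD, n = 3), a log2 fold change of 0.87 (SE 0.0893). Chrdl1 was lower, at 6.69, 7.58 and 6.34 CPM in WT and 11.7, 13.2 and 11.7 CPM in KO. Again the groups did not overlap, and the spread within each was small. Its log2 fold change was 0.80 (SE 0.109).

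Hmcn1 was at 3.94, 3.96 and 3.75 CPM in WT and at 5.94, 13.9 and 7.97 CPM in KO replicates 1, 2 and 3. All KO libraries lay above WT, but they were widely spread, with replicate 2 the highest. The log2 fold change was 1.24 (SE 0.275) and was 0.82 without that replicate. Tmem178 was at 2.59, 3.10 and 3.50 CPM in WT and at 5.90, 11.2 and 9.16 CPM in KO. Its log2 fold change was 1.49 (SE 0.231). Here too KO replicate 2 was the highest library and replicate 1 the lowest of the KO group. With each library left out in turn, the log2 fold change ran from 0.81 to 0.95 for Lrrn4, from 0.74 to 0.87 for Chrdl1 and from 1.29 to 1.71 for Tmem178. That the 4 genes separated the genotypes is what they were chosen for. Over all 17397 genes tested at gd19.5, 10% had every KO library above every WT library and 0.149% had a log2 fold change over 1, as Hmcn1 and Tmem178 had. At this stage Y-linked transcripts were present in WT replicate 2 and KO replicates 2 and 3, that is, in the KO libraries highest for Hmcn1 and Tmem178, and their part in the result was not tested.

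**Figure D1:**
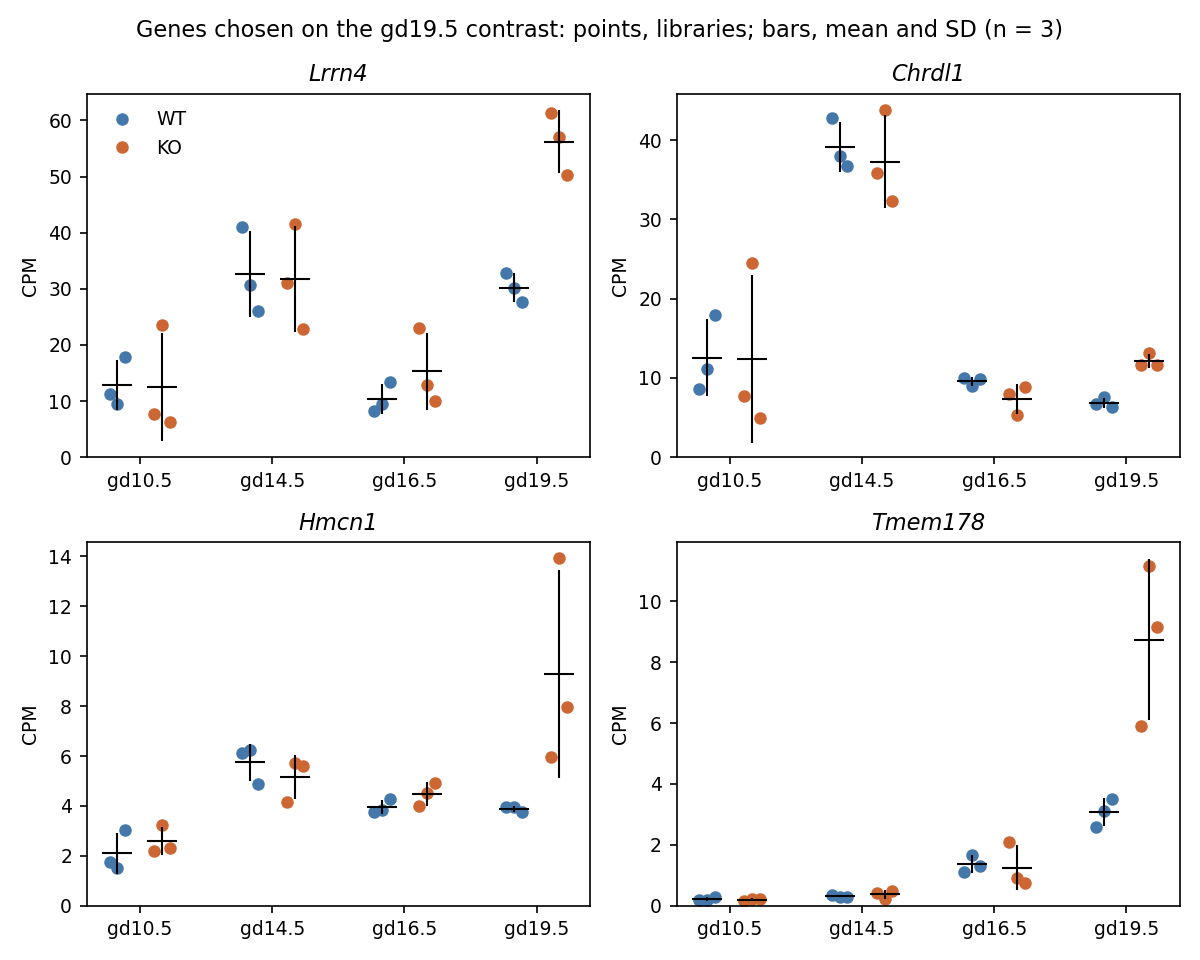
Levels of Lrrn4, Chrdl1, Hmcn1 and Tmem178 in CPM (vertical axes, each from 0) by stage (horizontal axes) in WT (blue) and KO (orange). Points are libraries, and the black bars give the mean and SD of 3. At gd19.5 the KO points lie above the WT points in all 4 panels, from which the genes were chosen, while at the earlier stages the genotypes overlap, or nearly touch for Chrdl1 at gd16.5.

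Of the 4 markers for comparison at gd19.5, Upk1b, Msln and Wt1 overlapped between the genotypes and Upk3b, at a very low level, did not. Upk1b was at 1.38 to 2.29 CPM in WT and 2.05 to 2.32 CPM in KO (log2 fold change 0.14, SE 0.211). Msln was at 49.2 to 60.1 CPM in WT and 48.3 to 60.0 CPM in KO (-0.10, SE 0.0999). Wt1, at 29.7 to 33.5 CPM in WT and 29.9 to 33.3 CPM in KO, had a log2 fold change of -0.01 (SE 0.0772). Upk3b had only 3 to 6 counts in a WT library and 8 to 17 in a KO library, which is 0.125 to 0.239 against 0.307 to 0.580 CPM, and did not pass the expression filter. Its KO libraries lay above its WT libraries at this very low level, where 3 counts, taken as the limit of detection, stand for 0.0773 to 0.149 CPM.

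The same comparison in the 18 libraries of gd10.5, gd14.5 and gd16.5, which the choice did not use, called none of the 8 genes. Averaged over these stages, the log2 fold change of KO over WT was 0.16 for Lrrn4 (SE 0.252), -0.16 for Chrdl1 (SE 0.242), 0.11 for Hmcn1 (SE 0.133) and -0.02 for Tmem178 (SE 0.254). It was 0.15 for Upk3b, 0.21 for Upk1b, -0.15 for Msln and -0.17 for Wt1. The adjusted p-values of edgeR's quasi-likelihood test (Benjamini-Hochberg over all genes) ran from 0.952 to 1.00. A gene was called when its adjusted p was under 0.05 and its log2 fold change was beyond 1 in either direction. None of the 8 genes was called, against 0.00527% of the 18969 genes tested. None of the 8 had an unadjusted p under 0.05 either (4.77% of all genes), and DESeq2 also called 0 of them. The standard errors of Lrrn4 and Chrdl1 here are larger than those at gd19.5, and of the single stages gd10.5 had the largest.

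At gd10.5, Lrrn4 was at 11.2, 9.45 and 17.9 CPM in WT and at 7.70, 23.5 and 6.30 CPM in KO replicates 1, 2 and 3. Chrdl1 was at 8.64, 11.1 and 17.9 CPM in WT and at 7.73, 24.5 and 4.88 CPM in KO. For both genes KO replicate 2 was the highest of the 6 libraries and KO replicate 3 the lowest. Wt1 ran the other way, at 93.7, 56.3 and 170 CPM in KO replicates 1, 2 and 3 and 98.7 to 133 CPM in WT. KO replicate 2 also had the highest sum of trophoblast markers (22993 CPM, against 4052 to 7578 CPM in the other 5 libraries) and the lowest sum of decidual markers (2252 CPM, against 3451 to 13268 CPM), and the part of these in the result was not tested. The log2 fold changes were -0.04 for Lrrn4 (SE 0.529), -0.02 for Chrdl1 (SE 0.603), 0.31 for Hmcn1 (SE 0.326) and -0.17 for Wt1 (SE 0.382). Without KO replicate 2, that of Lrrn4 was -0.87 and that of Chrdl1 -0.98, so their values near 0 rested on 1 library. Msln was at 54.3 to 73.4 CPM in WT and 36.9 to 54.0 CPM in KO (-0.41, SE 0.178). Adjusted p-values were 1.00 for the 7 members tested, Tmem178 having only 4 to 7 counts per library and not passing the filter, and 0 of 7 were called (0.00572% of all genes). DESeq2 called 0 of them as well, and 0 had an unadjusted p under 0.05 (0.801% of all genes).

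At gd14.5 the genotypes lay close together. Lrrn4 was at 26.1 to 41.0 CPM in WT and 22.8 to 41.6 CPM in KO (log2 fold change -0.04, SE 0.210), and Chrdl1 at 36.7 to 42.8 and 32.3 to 43.8 CPM (-0.07, SE 0.109). Hmcn1 (-0.17, SE 0.152), Tmem178 (0.21, SE 0.381), Msln (0.07, SE 0.106) and Wt1 (0.04, SE 0.138) overlapped as well. For Upk1b, with 11 to 31 counts per library, every KO library (0.644 to 0.976 CPM) lay above every WT library (0.395 to 0.608 CPM). Its log2 fold change of 0.70 (SE 0.279) had an unadjusted p of 0.0313 and an adjusted p of 0.719 in edgeR. An unadjusted p under 0.05 was found in 6.78% of all genes. KO libraries lay above WT libraries in 6.08% of all genes at this stage. Of the 7 members tested, 0 were called by edgeR and 0 by DESeq2 (0.0166% of all genes in edgeR). Upk3b did not pass the filter.

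At gd16.5, Lrrn4 was at 8.23, 9.50 and 13.4 CPM in WT and at 23.1, 12.8 and 10.1 CPM in KO replicates 1, 2 and 3. The groups overlapped, and the highest library, KO replicate 1, was rich in yolk sac transcripts. The log2 fold change was 0.57 (SE 0.319, edgeR adjusted p = 0.498) and changed sign to -0.19 without the libraries rich in yolk sac transcripts, which left WT replicates 2 and 3 and KO replicate 3. Chrdl1 leaned the other way, at 9.96, 8.93 and 9.88 CPM in WT and 8.02, 5.27 and 8.89 CPM in KO, with a log2 fold change of -0.37 (SE 0.196, edgeR adjusted p = 0.483). The lowest WT and the highest KO library were almost equal. The members called numbered 0 of 8 in edgeR and 0 in DESeq2 (0.00586% of all genes in edgeR), and 0 had an unadjusted p under 0.05 (11.1% of all genes). Of the 4 chosen genes, Lrrn4 and Hmcn1 were positive and Chrdl1 and Tmem178 negative at this stage. Without those libraries Tmem178 was at -1.04 in place of -0.14 (SE 0.492, edgeR adjusted p = 0.707), Chrdl1 at -0.08 and Upk1b at -0.59 in place of -0.24, and none was called.

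**Figure D2:**
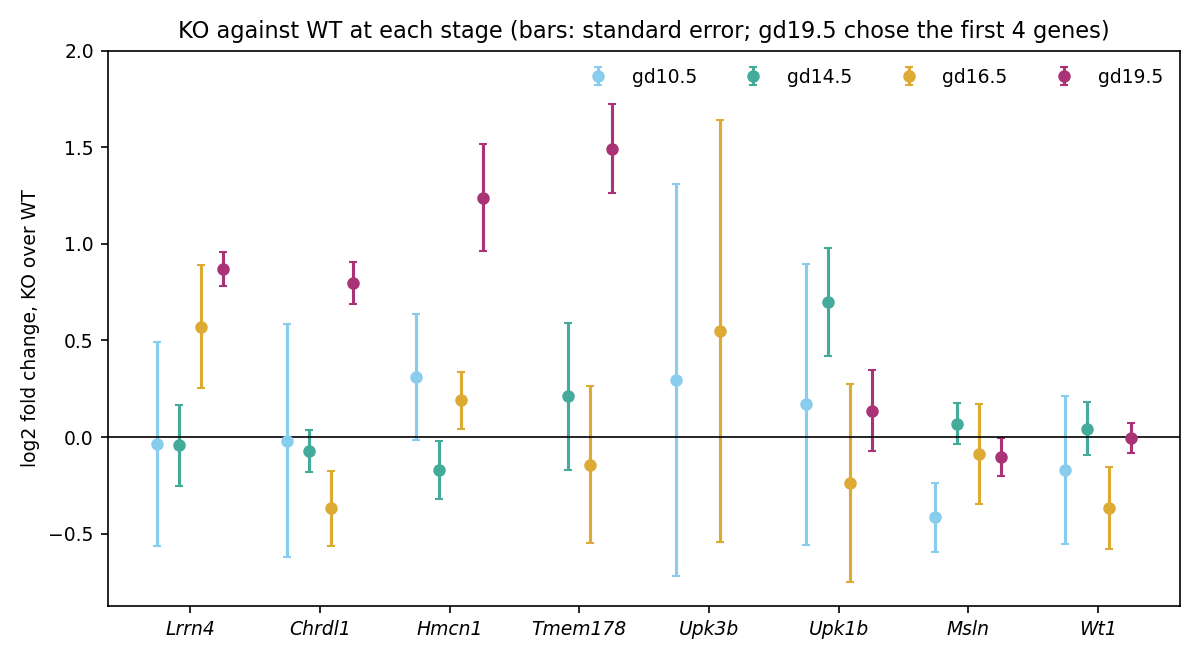
Log2 fold change of KO over WT (vertical axis) for each gene (horizontal axis) at the 4 stages, with bars for 1 standard error. The gd19.5 values of the first 4 genes, which chose them, lie between 0.80 and 1.49. No value of the earlier stages was called, and Tmem178 at gd10.5 and Upk3b at gd14.5 and gd19.5 are missing because they did not pass the expression filter.

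Change between stages was tested on the mean of both genotypes, which enter with equal weight. From gd10.5 to gd14.5, Lrrn4 rose by a log2 fold change of 1.35 (SE 0.274, edgeR adjusted p = 0.000228), Chrdl1 by 1.62 (SE 0.262, adjusted p = 1.98e-05) and Hmcn1 by 1.23 (SE 0.190, adjusted p = 1.11e-05). Of the chosen genes, only Tmem178 was not called at this step. Wt1 fell by 1.53 on the log2 scale (SE 0.193, edgeR adjusted p = 1.02e-06), from 56.3 to 170 CPM at gd10.5 to 31.0 to 48.0 CPM at gd14.5, so that the stages did not overlap. Of 6 decidual markers, 4 were called lower over the same interval and 1, Prl3c1 (1.71), higher, with a median log2 fold change of -1.49, and their part in the result was not tested. Upk3b fell by 3.65 on the log2 scale and Upk1b by 1.04. In all 6 of the 8 members were called, 3 in each direction, against 22.4% of all 19299 genes tested (10.3% higher and 12.1% lower). For Tmem178 the value was 0.69 (edgeR adjusted p = 0.0764), and for Msln it was 0.33 (adjusted p = 0.0483), which is under the fold limit. Without the libraries rich in yolk sac transcripts no KO library of gd10.5 remained, so this step was then taken in WT only. Msln was at 0.03 in that setting, and the parts of genotype and of yolk sac content in the change were not tested.

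From gd14.5 to gd16.5, Lrrn4 fell by 1.36 on the log2 scale (SE 0.276, edgeR adjusted p = 0.000733) and Chrdl1 by 2.19 (SE 0.271, adjusted p = 3.98e-06). The libraries of the 2 stages did not overlap for Chrdl1, at 32.3 to 43.8 CPM before and 5.27 to 9.96 CPM after. Tmem178 rose by 1.95 (SE 0.268, edgeR adjusted p = 1.34e-05), from 0.206 to 0.498 CPM to 0.730 to 2.09 CPM. Hmcn1 was at -0.37 (edgeR adjusted p = 0.126), Msln -0.38 (adjusted p = 0.0467) and Wt1 -0.53 (adjusted p = 0.0403), the last 2 under the fold limit. With Upk3b and Upk1b, both higher, 5 of 8 members were called, 3 higher and 2 lower, against 8.02% of all genes (4.93% and 3.09%). Lrrn4 and Chrdl1 thus fell where Tmem178 rose.

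From gd16.5 to gd19.5, Lrrn4 rose by 1.71 on the log2 scale (SE 0.278, edgeR adjusted p = 0.000519) and Tmem178 by 2.00 (SE 0.224, adjusted p = 1.65e-05). The gd19.5 libraries that chose the first 4 genes enter this step, so for these 4 genes its p-values and calls are no independent support. In WT alone, Lrrn4 went from 8.23 to 13.4 CPM to 27.6 to 32.7 CPM and Tmem178 from 1.12 to 1.68 CPM to 2.59 to 3.50 CPM, so the stages did not overlap in WT either. Chrdl1 (0.12, edgeR adjusted p = 0.831), Hmcn1 (0.51, adjusted p = 0.0806), Upk1b (-0.40), Msln (0.07) and Wt1 (0.20) were not called. For Chrdl1 the sign turned without the libraries rich in yolk sac transcripts. With Upk3b, 3 of 8 members were called, 2 higher and 1 lower, against 2.66% of all genes (1.03% and 1.63%). The 2 higher, Lrrn4 and Tmem178, were among the genes chosen at gd19.5. Without the libraries rich in yolk sac transcripts, 5, 4 and 2 members were called at the 3 steps.

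In order of their group means, Lrrn4 was highest in KO gd19.5 (56.2 CPM), followed by WT gd14.5 (32.6), KO gd14.5 (31.8) and WT gd19.5 (30.2), of which the last 3 did not differ beyond their spread, and then by gd16.5 and gd10.5 (10.4 to 15.3), which overlapped. For Chrdl1 both gd14.5 groups came first (39.1 ± 3.18 and 37.3 ± 5.89 CPM, SD, n = 3) and WT gd19.5 last (6.87 ± 0.640 CPM), while KO gd19.5 (12.2 ± 0.868 CPM) stood within the spread of gd10.5. Hmcn1 was highest in KO gd19.5 (9.29 ± 4.16 CPM), whose lowest library overlapped with gd14.5 (5.75 and 5.16 CPM), and lowest at gd10.5 (2.11 and 2.59 CPM). Tmem178 was at 8.74 ± 2.65 CPM in KO gd19.5 and 3.06 ± 0.459 CPM in WT gd19.5, then at 1.37 and 1.25 CPM at gd16.5, which overlapped, and at most 0.371 CPM on average before. Wt1 was first in WT and KO gd10.5 (120 ± 18.8 and 107 ± 57.8 CPM), and its other 6 groups had means of 23.9 to 39.9 CPM. Msln means ran only from 46.1 to 68.9 CPM, with neighbours in that order overlapping.

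Upk3b was high in some libraries of a group and low in others. At gd10.5 it was at 8.16, 0.945 and 0.677 CPM in WT replicates 1, 2 and 3 and at 3.55, 1.49 and 7.03 CPM in KO. At gd16.5 it was at 4.63, 0.221 and 0.389 CPM in WT and at 2.44, 4.75 and 0.411 CPM in KO. At gd14.5 and gd19.5 all 12 libraries lay between 0.125 and 0.580 CPM. The 7 libraries rich in yolk sac transcripts were exactly those above 1 CPM, at 1.49 to 8.16 CPM, and the other 17 lay at 0.125 to 0.945 CPM, so these did not overlap. Upk1b was at 0.343 to 4.79 CPM in the 7 and 0.395 to 2.74 CPM in the 17, which overlapped, as did the other 6 members. Upk3b is a marker of mesothelium, which the yolk sac also has, and the part of yolk sac tissue in these values was not tested.

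**Figure D3:**
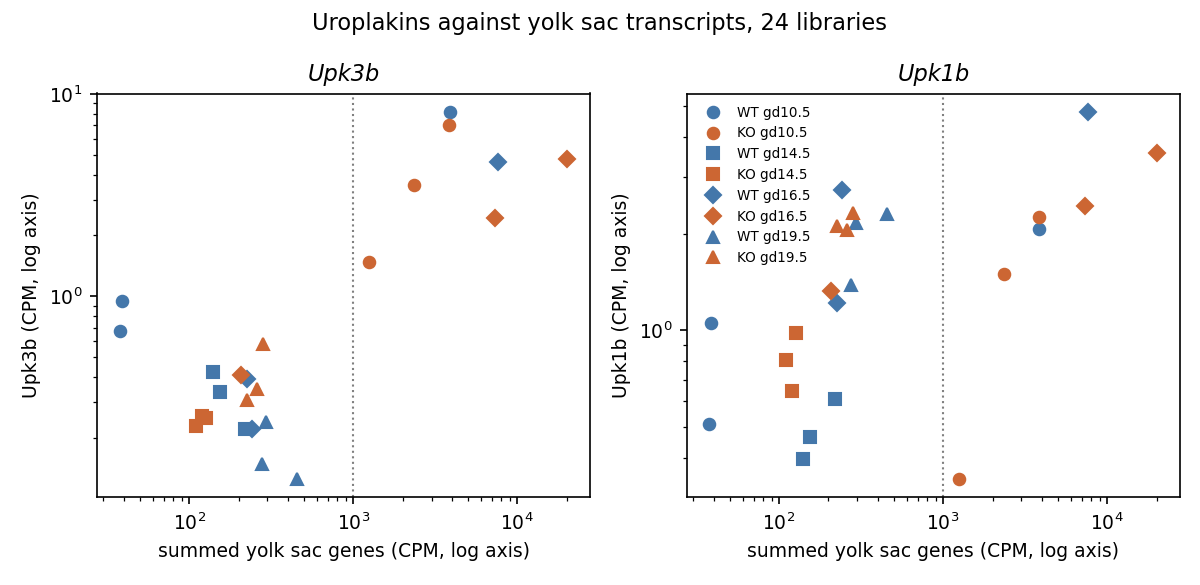
Upk3b (left) and Upk1b (right) in CPM against the summed CPM of 7 yolk sac endoderm genes, both on log axes, in 24 libraries marked by genotype (colour) and stage (shape). The dotted line is at 1000 CPM. For Upk3b the 7 libraries to the right of it lie above all 17 to the left, whereas for Upk1b they overlap.

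The stage differences of Upk3b moved with these libraries. Its log2 fold change was -3.65 (SE 0.762, edgeR adjusted p = 0.000309) from gd10.5 to gd14.5, 2.89 (SE 0.776, adjusted p = 0.00647) to gd16.5 and -2.98 (SE 0.815, adjusted p = 0.0215) to gd19.5. Without the 7 libraries, the gd10.5 side of the first step was WT replicates 2 and 3 alone and that step was taken in WT only. The values were then -1.33 (edgeR adjusted p = 0.00379), 0.30 (adjusted p = 0.584) and -0.39 (adjusted p = 0.566), so the first step was called and the others were not. Without WT gd16.5 replicate 1 alone, the second was 1.63 and the third -1.72, and neither was called. The yolk sac genes themselves fell at the first step (6 of 7 called), rose at the second (6 of 7) and fell at the third (5 of 7). Over all genes, 12.1%, 4.93% and 1.63% were called in these directions. Upk1b rose by 2.09 on the log2 scale from gd14.5 to gd16.5 (SE 0.396, edgeR adjusted p = 0.000387), and by 1.37 without these libraries (adjusted p = 0.00304). Its fall of 1.04 from gd10.5 to gd14.5 (SE 0.406, adjusted p = 0.0303) was not called without them (-0.73, adjusted p = 0.137). Between gd16.5 and gd19.5 its sign turned, from -0.40 to 0.33 without them (adjusted p = 0.486).

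**Figure D4:**
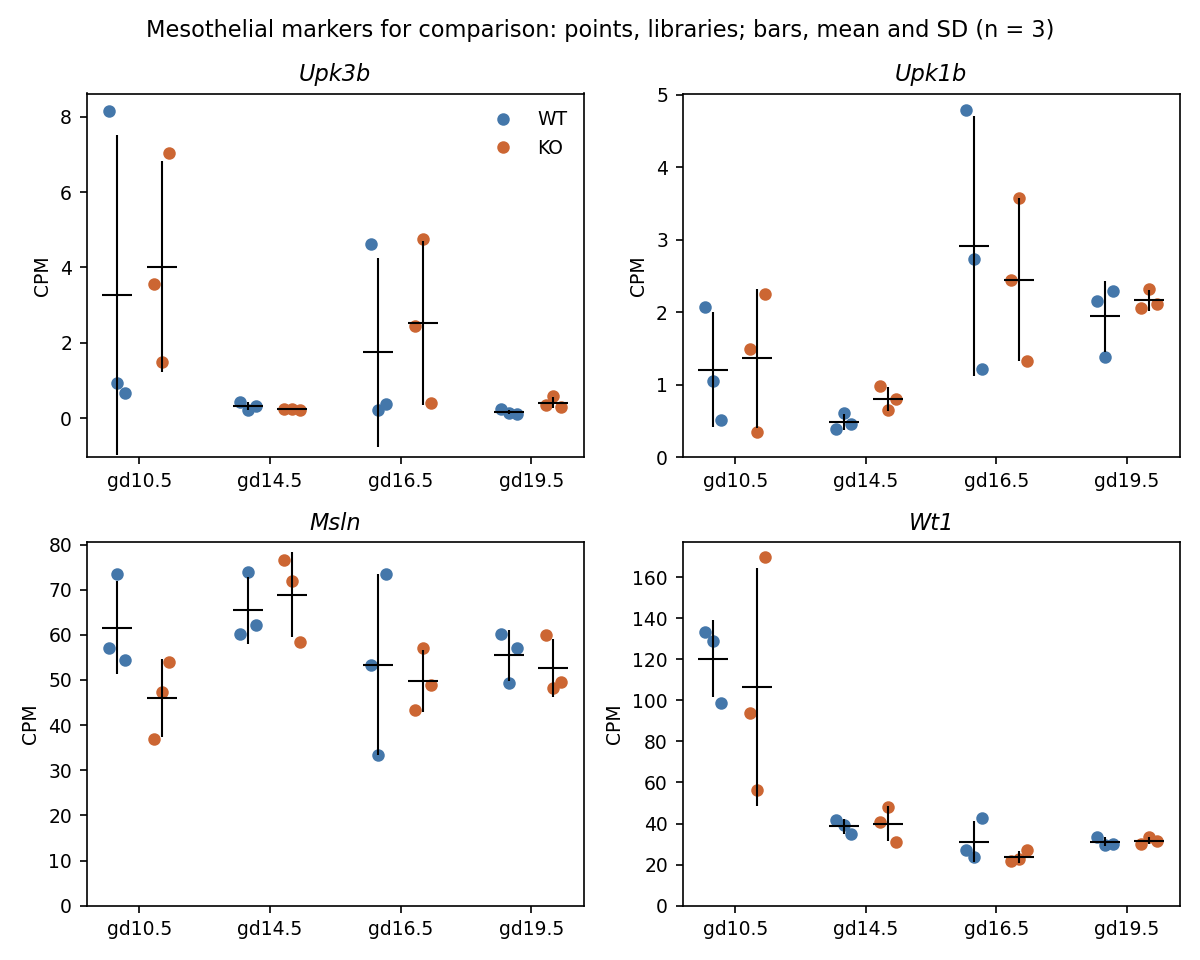
Levels of Upk3b, Upk1b, Msln and Wt1 in CPM (vertical axes) by stage (horizontal axes) in WT (blue) and KO (orange). Points are libraries, and black bars give the mean and SD of 3. Upk3b was above 1 CPM in 4 libraries of gd10.5 and 3 of gd16.5, Wt1 was highest at gd10.5, Msln stayed between 33.4 and 76.5 CPM, and the genotypes of gd19.5 overlapped for Upk1b, Msln and Wt1.

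Deviations of the 24 libraries from their group means showed which members varied together, as a description over libraries that share tissue and depth. Lrrn4 and Chrdl1 varied together (Pearson r = 0.77), as did Upk3b and Upk1b (0.76) and, less closely, Chrdl1 and Hmcn1 (0.50) and Msln and Wt1 (0.50). Chrdl1 ran against Upk1b (-0.82) and Wt1 (-0.62), and Lrrn4 against Upk1b (-0.64). Tmem178 was within 0.39 of 0 with every other member. The 4 chosen genes correlated with each other at 0.14 to 0.77, and none of the 4 correlated with Upk3b above 0. In these deviations Lrrn4, used as a mesothelial marker, thus varied with the BMP antagonist and not with the uroplakins. Both Lrrn4 and Chrdl1 spread widely in KO gd10.5, where replicate 2 was the highest for each. In KO gd16.5 Lrrn4 was highest in replicate 1 and Chrdl1 in replicate 3. The part of single libraries in these correlations was not tested.

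**Figure D5:**
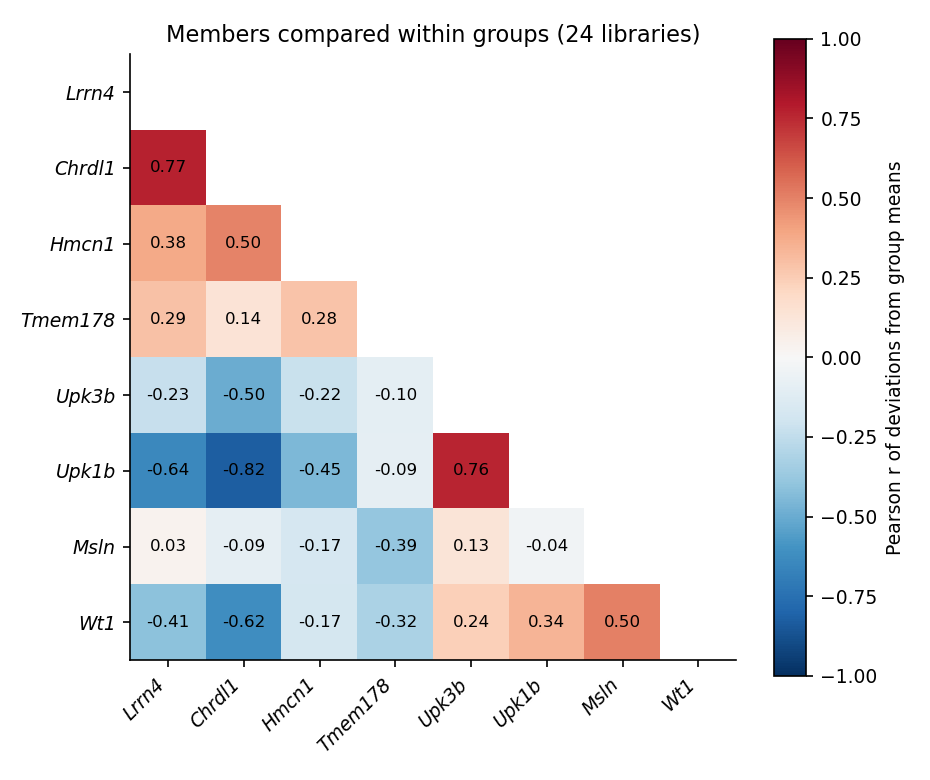
Pearson correlation (colour scale, -1 to 1, values in the cells) between members over 24 libraries, after the mean of each group was subtracted from log2 CPM. Lrrn4 with Chrdl1 (0.77) and Upk3b with Upk1b (0.76) are the highest pairs, and Chrdl1 with Upk1b (-0.82) the lowest.

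Among 15109 genes with a mean of at least 1 CPM, the pattern over all 24 libraries most like that of Lrrn4 belonged to Kif13a (Pearson r of log2 CPM 0.87), Apbb1 and Cnst. Chrdl1 was closest to Lysmd2 (0.94), the thyroid hormone receptor Thrb and Senp3, Hmcn1 to Frmd6 (0.88), Cmpk2 and Kctd20, and Tmem178 to Syt11 (0.97), Tspan3 and Lgr4. The gd19.5 libraries that chose Lrrn4, Chrdl1, Hmcn1 and Tmem178 enter these patterns. Upk3b was closest to Hpn (0.96), a membrane serine protease of liver, Glp1r and F10, a coagulation factor of liver. After group means were subtracted, it was closest to Cdhr2, Igfals and Cubn (0.94 each), and Cubn is 1 of the yolk sac genes. Wt1 was close to Padi2 and Thsd7a (0.99 each) and, within groups, to Runx1 (0.97), Pknox2 and Ampd3. Upk1b was closest to Ell2, Serpinb1a and Lrp4 (0.89 each), and Msln to Hspb7 (0.83), Cldn1 and Pdzd7. No member was among the 3 genes most like another. Within groups, Lrrn4 was closest to Ank (0.91), Chrdl1 to Manbal, Fstl3, which binds activin, and Magel2 (0.94 to 0.95), Hmcn1 to the Notch ligand Jag1 (0.88), Tmem178 to Lgr4 (0.76), Upk1b to Dnajc22 (0.91) and Msln to Galc (0.91).

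Relatives of the chosen genes were compared from lists. Of the leucine-rich neuronal family of Lrrn4, Lrrn2 was at 4.08 ± 0.397 CPM in WT and 6.95 ± 2.04 CPM in KO at gd19.5 (SD, n = 3). The difference of 0.75 on the log2 scale (SE 0.202) had an edgeR adjusted p of 0.191. Every KO library lay above every WT library, as in 10% of all genes tested at gd19.5. Lrrn3 had 0.38 (adjusted p = 0.521) and Lrrn1 did not pass the filter. Both Lrrn2 and Lrrn3 rose from gd10.5 to gd14.5, by 2.19 and 2.10 on the log2 scale, as Lrrn4 did. They were not called at the later steps, where Lrrn4 was, and the last of these steps includes the gd19.5 libraries that chose Lrrn4. Tmem178b, the paralog of Tmem178, had group means of 0.131 to 0.319 CPM and did not pass the filter.

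Of 21 other genes of the BMP pathway, the setting in which Chrdl1 acts, 19 were tested at gd19.5 and 0 were called in edgeR, against 0.023% of all genes, while 9 had an unadjusted p under 0.05 (13.5% of all genes). In 8 of the 19 every KO library lay above every WT library (10% of all genes) and in 2 below (10.4%), and the median log2 fold change was 0.17, against -0.01 over all genes. The largest positive values were those of the target Id3 (0.44, SE 0.0863, edgeR adjusted p = 0.118) and the antagonist Grem1 (0.34, adjusted p = 0.519). The ligand Bmp7 was at -0.51 (adjusted p = 0.319) and the antagonist Chrd at -0.38 (adjusted p = 0.256). From gd10.5 to gd14.5, when Chrdl1 rose, 5 of the 19 were called higher and 5 lower, against 10.3% and 12.1% of all genes. Higher were Grem1 (3.39), Bmper (2.92), Bmp6 (1.49), Nog (1.25) and Twsg1 (1.13), and lower were Bmp2 (-3.56), Bmp7 (-1.98), Fst (-1.62), Chrdl2 (-1.61) and Chrd (-1.53). Chrdl2, the closest relative of Chrdl1, thus fell where Chrdl1 rose. From gd14.5 to gd16.5, Bmp4 rose by 2.03 while Chrdl2 fell by 2.02, and to gd19.5 Grem1 rose by 1.20 and Chrdl2 fell by 1.20.

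Of 17 genes of hemicentin 2, fibulins and basement membrane, the company of Hmcn1, 0 were called at gd19.5 in edgeR (0.023% of all genes). Only 1 had an unadjusted p under 0.05 (13.5% of all genes), and the median log2 fold change was 0.17. Fbln1 (0.35, edgeR adjusted p = 0.167) was the 1 gene whose KO libraries all lay above WT (10% of all genes). From gd10.5 to gd14.5, when Hmcn1 rose, Fbln1 (3.01), Lama2 (1.68) and Hmcn2 (1.12) rose and Efemp1 (-3.05) and Fbln5 (-1.78) fell. At that first step 10.3% of all genes were called higher and 12.1% lower. Efemp1 fell by a further 1.69 to gd16.5, and to gd19.5 edgeR called 0 of the 17 (2.66% of all genes).

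Cell type lists at gd19.5 were compared with the chosen genes. Of the 11 other mesothelial markers, 8 were tested, 0 were called by edgeR, 1 (Pdpn, 0.36, adjusted p = 0.202) had an unadjusted p under 0.05 and the median was 0.15. All 8 smooth muscle genes were positive (median 0.39), 4 of them with all KO libraries above WT (10% of all genes), namely Cnn1 (0.86, edgeR adjusted p = 0.0838), Actg2 (0.68), Myh11 (0.57) and Acta2 (0.49), with 0 called and 5 at an unadjusted p under 0.05, which 13.5% of all genes had. All 8 endothelial genes were positive (median 0.26, 0 called, 4 at an unadjusted p under 0.05), and 11 of 17 genes of stroma and fibroblasts (median 0.19, 0 called, 5 at an unadjusted p under 0.05). Smooth muscle genes summed to 577 to 693 CPM in WT and 624 to 821 CPM in KO, and those of endothelium to 923 to 1074 and 1006 to 1267 CPM. Decidual markers summed to 2673 to 3919 CPM in WT and 2136 to 2485 CPM in KO, which did not overlap, and most of each sum was Prl8a2 (2264 to 3528 and 1720 to 2056 CPM). Of the 6 decidual genes 3 were positive (median 0.10), 0 were called, and 4 had an unadjusted p under 0.05, Prl8a2 (-0.54) and Prl3c1 (-0.39) lower and Wnt4 (0.25) and Hand2 (0.35) higher. Genes of uterine epithelium (median 0.03), yolk sac (-0.19) and trophoblast (-0.11) had 0 called by edgeR and 1, 1 and 0 at an unadjusted p under 0.05. The yolk sac gene was Rbp4 (-0.87, edgeR adjusted p = 0.0436), which was under the fold limit. Its KO libraries all lay below WT (10.4% of all genes). The part of these cell types in the values of Lrrn4, Chrdl1, Hmcn1 and Tmem178 was not tested. At gd16.5, smooth muscle and endothelial genes had medians of -0.44 and -0.34, with 0 called by edgeR and 3 of each at an unadjusted p under 0.05 (11.1% of all genes). Stroma and fibroblast genes had a median of -0.33, with 0 called and 7 of 17 under that p. Trophoblast genes had a median of 0.31, with 0 called and 6 of 8 under it, in both directions. The other mesothelial markers (-0.06), decidua (-0.19), uterine epithelium (0.09) and yolk sac (1.31) had 0 called and 1, 2, 2 and 0 under it.

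At the stage steps the other mesothelial markers, like the members, went in different directions. From gd10.5 to gd14.5, Nkain4 rose by 1.84 (edgeR adjusted p = 0.000108) and Cldn15 fell by 2.66 (adjusted p = 1.64e-06). Neither was called at a later step, while Aldh1a2, which makes retinoic acid, rose by 1.43 from gd16.5 to gd19.5 (adjusted p = 0.000476). That left 1 of 8 tested called by edgeR in each direction at the first step, 0 at the second and 1 higher at the third. Over all genes, 10.3% were called higher and 12.1% lower at the first step, 8.02% at the second and 1.03% higher at the third. At the first step these markers lay near the shares of all genes. Stroma and smooth muscle genes were likewise called in both directions from gd10.5 to gd14.5. Fbln1 (3.01), the collagen-binding Lum (2.97), Tcf21 (1.69), Pi16 (1.54) and Pdgfrb (1.19) rose, while Hoxa11 (-1.55), Hoxa10 (-1.16), Cd34 (-1.12) and the steroid receptors Pgr (-1.03) and Esr1 (-1.01) fell. Of smooth muscle, Lmod1 (3.04) and Myh11 (2.45) rose, and Des fell by just over the fold limit. To gd16.5, Dpt (2.00), Cnn1 (1.76) and Myh11 (1.06) rose. To gd19.5, when Lrrn4 and Tmem178 rose, edgeR called 0 genes of either list (2.66% of all genes). Under the fold limit, Cnn1 (0.95), Pgr (0.67), Esr1 (0.65) and Dcn (0.60) rose and Pi16 (-0.68) fell, at edgeR adjusted p of 0.00894 to 0.0251. All 8 smooth muscle genes were positive at this step (median 0.31), and 11 of 17 stroma genes (median 0.08). Of the other uroplakins, Upk2 fell by 1.88 at the first step and rose by 1.54 at the second, and Upk3a fell by 1.34 at the second. These values lie near the limit of detection, with 2 to 7 counts per library for Upk2 at gd14.5 and 2 to 10 for Upk3a at gd16.5.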

How the data were processed

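PolyA RNA of MFI tissue was sequenced from 24 libraries in 8 groups of 3. Per the labels and the study's methods, stranded libraries were read as pairs. Per the submitters' processing notes, reads were processed with Trim Galore 0.6.4, STAR 2.7.3a on GRCm38 and featureCounts of Subread 2.0.0. The authors deposited raw read counts per gene, counted at default settings (strand is ignored, and a read with several places on the genome is dropped), and the deposited exon length of each gene gave RPKM. Groups came from the labels. Titles and descriptions number KO libraries differently, and replicate numbers here follow the descriptions.

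Counts were tested in R 4.3.3 with edgeR 4.0.16 (filterByExpr, minimum count 10 and minimum total 15, TMM, quasi-likelihood F-test). Calls needed a Benjamini-Hochberg adjusted p under 0.05 over all genes and more than 1 on the log2 scale either way, the study's limits. Each stage was fitted alone, stage steps on all 24 libraries, and the 3 earlier stages on 18. DESeq2 1.42.0, other filters, the replicate block, all libraries in 1 fit and each library left out were alternatives, and leaving out libraries rich in yolk sac transcripts was added after seeing the data. Standard errors were the log2 fold change over the root of F. Patterns were compared on log2 CPM with a prior count of 2. A count of 3 was the limit of detection. The steps were tested on simulated data. The members and gene lists were chosen with earlier results of these data known. The text names the 8 members, list genes that were called or had the largest changes, and the 3 genes most like each member. For endothelium, trophoblast, decidua, uterine epithelium and yolk sac, counts and medians mostly stand in place of single genes. A gene of the BMP list and a gene like Wt1 in its pattern are not reported here.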

Additional observations from a re-analysis of the deposited data

How the results depend on the processing

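Of 331 tested values of the members under the other planned settings, 328 kept their direction and call, 3 gained a call (Msln at 0.33 and -0.38 and Wt1 at -0.53, with no fold-change threshold) and 0 changed sign. Counts over all genes moved more. With no fold-change threshold, 20 genes were called at gd19.5 in place of 4, and 12679, 6787 and 2230 at the 3 stage steps in place of 4319, 1548 and 514. With no expression filter the counts were 44 at gd14.5 (3 in the fit described), 50 at gd16.5 (1), 82 at gd19.5 and 5 over the 3 earlier stages (1). With DESeq2 they were 2 at gd10.5 (1), 44 at gd16.5, 19 at gd19.5 and 6 over the 3 earlier stages. With all 24 libraries in 1 fit gd14.5 had 1, gd16.5 had 2 and gd19.5 had 1. With at least 10 counts in every library, 2235, 634 and 184 genes were called at the stage steps, and 2 members in place of 5 and 1 in place of 3 at the later steps, since Tmem178, Upk3b and Upk1b no longer passed.

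Whether replicate numbers pair the samples could not be settled, and they were not taken as pairs. The correlation of deviations between same-numbered KO and WT libraries ran from -0.55 to 0.54, with 6 of 12 over 0.1. Between libraries of different number it ran from -0.73 to 0.69. At gd14.5 and gd19.5 all same-numbered pairs were above 0, at 0.09 to 0.27. With the replicate block, 1 gene was called at gd14.5 and 9 at gd19.5, no member changed its call or direction, and the fold changes at gd19.5 were 0.87 for Lrrn4, 0.80 for Chrdl1, 1.17 for Hmcn1 and 1.46 for Tmem178.

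Without the libraries rich in yolk sac transcripts, an alternative chosen after seeing the data, Lrrn4 at gd16.5 turned to -0.19 (edgeR adjusted p = 0.944), Chrdl1 from gd16.5 to gd19.5 to -0.000188 and Upk1b over that step to 0.33. The cause was not tested.

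With each library left out in turn, genes called over the whole table numbered 1 to 6 (gd10.5), 2 to 5 (gd14.5), 0 to 5 (gd16.5), 1 to 7 (gd19.5) and 1 to 5 over the 3 earlier stages, and at the stage steps 4134 to 5013, 1372 to 1706 and 358 to 596. Members called numbered 5 to 6, 4 to 5 and 2 to 3 at the steps and 0 in the genotype comparisons. Of 852 tested member values, 42 changed sign and 12 lost a call. Log2 fold changes at gd10.5 ran from -0.87 to 0.29 for Lrrn4, -0.98 to 0.37 for Chrdl1, -0.38 to 2.31 for Upk3b, -0.40 to 0.79 for Upk1b and -0.68 to 0.14 for Wt1. At gd14.5 they ran from -0.29 to 0.17 for Lrrn4, -0.21 to 0.0186 for Chrdl1, -0.0355 to 0.55 for Tmem178, -0.0113 to 0.17 for Msln and -0.11 to 0.19 for Wt1. At gd16.5 they ran from -0.70 to 0.11 for Tmem178, -0.32 to 3.09 for Upk3b, -0.63 to 0.33 for Upk1b and -0.34 to 0.21 for Msln. Over the 3 earlier stages they ran from -0.12 to 0.27 for Lrrn4, -0.20 to 0.0915 for Tmem178 and -0.14 to 0.99 for Upk3b, and from gd16.5 to gd19.5 from -0.0562 to 0.22 for Msln. Upk1b from gd10.5 to gd14.5 lost its call without any of 6 libraries (WT gd10.5 replicate 1, KO gd10.5 replicates 1 and 3, WT gd14.5 replicates 1 and 3, KO gd14.5 replicate 2), with values of -0.74 to -1.02. Upk3b from gd16.5 to gd19.5 lost its call without WT gd16.5 replicate 1, KO gd16.5 replicate 2, WT gd19.5 replicates 2 or 3 or KO gd19.5 replicate 3. Low counts limit Tmem178 at gd10.5 and gd14.5 and Upk3b at gd14.5 and gd19.5, where a library held 3 to 17.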
